A study of Mus musculus with 29 samples.

Results

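Genes of myeloid cells, 7 of the 13982 in the table, were followed through 14 RNA-sequencing libraries of NZB/W mice: Clec4a3, Clec4b1, Clec12a, Cd300e, Sirpb1a, Wfdc17 and AF251705. They were chosen on the data themselves, as genes listed low in the 3 renal draining lymph nodes of antibody-positive mice and high in the 3 nodes of proteinuric mice. Their difference between those nodes is therefore a description, and no test of it is given. TLS and kidney took no part in the choice, and only there were the genes tested.

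NZB/W mice are (NZBxNZW)F1 hybrids, which spontaneously develop a lupus-like disease with nephritis. All mice were of this hybrid, and none received a treatment in the labels. The proteinuric lymph nodes came from mice H6, H20 and H117, aged 39, 36 and 32 weeks. The nodes labelled Ab positive came from mice D10, D11 and L25, aged 28, 29 and 18 weeks, with anti-dsDNA antibodies for less than 5 weeks. One node came from a young mouse, C45, aged 4 weeks. TLS, the tertiary lymphoid structures that form in the inflamed kidney, were dissected by hand from kidneys of the proteinuric mice H6, H20 and H115, the last aged 25 weeks, and the rest of the kidney was taken from mice H6, H20, H115 and H117. RNA of the Ab positive nodes was isolated with a miRNeasy kit, and all other RNA, that of the young node included, with TRIzol. The proteinuric and Ab positive nodes thus differed in kit and age as well as in disease, which cannot be told apart. The young node shared the kit of the proteinuric nodes, but was far younger.

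The libraries held between 343825 and 443379 reads. In the normalized values, 1 read is added to the count of a gene and the sum is scaled by the size factor of its library, so that a gene without a read is listed between 0.786 and 1.77, and 3 reads, the floor used here, at 3.14 to 7.10. Ribosomal RNA genes took 31.8% of the reads of the H6 node, 21.3% of the H115 TLS and 55.6% of the H117 kidney, and at most 5.33% elsewhere. In bulk tissue, fewer cells of a type and less RNA per cell cannot be told apart. The lists of marker genes fit the labelled tissues: none of 7 genes of kidney tubules had a read in the Ab positive and young nodes and 6 of 7 had none in the proteinuric nodes, whereas the 8 B cell genes had a summed value of 601 to 1255 in all 7 nodes and of 9.27 to 28.4 in kidney.

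Most of the 7 genes encode receptors by which myeloid cells sense their surroundings. Clec4a3 (DCIR3) and Clec4b1 (DCAR) are C-type lectins of the Dectin-2 gene cluster, and Clec12a (MICL) is a C-type lectin that inhibits myeloid cells and recognizes uric acid crystals from dead cells. Cd300e, AF251705 and Sirpb1a are immunoglobulin-type receptors that activate the cell through the adaptor DAP12, encoded by Tyrobp, while DCAR signals through the Fc receptor gamma chain, encoded by Fcer1g. Wfdc17 is a small secreted WAP-domain protein of activated macrophages and microglia. AF251705 is the older name of Cd300c2, as the study's gene tables pair both with ENSMUSG00000044811.

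In GRCm38, the build the reads were mapped to, 6 of the 7 genes lie on chromosomes 6 and 11. Clec4a3 (ENSMUSG00000043832, chr6:122952515-122969875) and Clec4b1 (ENSMUSG00000030147, chr6:123049962-123071555) are 80086 bases apart, both on the plus strand. Clec12a (ENSMUSG00000053063, chr6:129342691-129365303, plus strand) lies on the same chromosome, 6271135 bases further on. AF251705 (chr11:114996721-115001880) and Cd300e (ENSMUSG00000048498, chr11:115051917-115062177) are 50036 bases apart on the minus strand. Wfdc17 (ENSMUSG00000069792, chr11:83703991-83706268, plus strand) is on the same chromosome but far from them. Sirpb1a (ENSMUSG00000095788, chr3:15371653-15426520, minus strand) has near-identical neighbors, and 29.3% of the stretches of 75 bases in its GENCODE M21 transcripts occur also in Sirpb1c or Sirpb1b. Reads of such stretches may be counted to any of the 3, so the level of Sirpb1a is uncertain. The share was 5.19% for AF251705 (with Cd300a), 1.02% for Clec4b1 (with Clec4a2) and 0 for Clec4a3, Clec12a, Cd300e and Wfdc17.

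Because the 7 genes were high in the same nodes, the 250 bases before their start sites in RefSeq (GRCm38.p6) were searched for GAGGAA, the purine-rich core of sites of the myeloid factor PU.1, on both strands. The letters were found in a window of 5 of the 7 genes (all but Cd300e and Sirpb1a). That is 5 of 8 windows, since Clec4a3 has a further window without them, and 23.3% of all 32851 promoter windows of that length held them. TTNNGCAA, the letters of many C/EBP sites, was found in 1 of the 8 windows, that of Clec12a, and in 9.56% of all windows. The RefSeq start sites are not always at the ends of the genes as given above. The matches of Clec4a3, Clec12a and Wfdc17 lie inside those bounds, before a start site further in. The 2 motifs overlapped nowhere in these windows. A match describes the letters only. Shown are 1 lectin of the Dectin-2 cluster, the lectin with both motifs, and the 2 neighbors of the CD300 cluster, 1 with the letters and 1 without, each 5′ to 3′ on the strand of the gene, with GAGGAA, its complement TTCCTC and the palindrome TTGCGCAA in capitals.
Clec4b1, chr6:123049712-123049961, plus strand: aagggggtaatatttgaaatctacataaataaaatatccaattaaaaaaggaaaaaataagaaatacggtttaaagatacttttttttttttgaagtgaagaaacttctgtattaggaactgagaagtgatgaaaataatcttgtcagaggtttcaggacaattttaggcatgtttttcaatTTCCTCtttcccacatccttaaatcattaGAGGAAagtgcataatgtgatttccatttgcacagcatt
Clec12a, chr6:129349994-129350243, plus strand: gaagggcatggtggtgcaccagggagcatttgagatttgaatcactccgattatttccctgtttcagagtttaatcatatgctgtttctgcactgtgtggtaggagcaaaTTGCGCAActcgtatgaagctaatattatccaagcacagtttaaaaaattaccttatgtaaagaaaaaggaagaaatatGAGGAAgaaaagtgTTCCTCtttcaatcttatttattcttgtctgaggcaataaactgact
AF251705, chr11:115001881-115002130, minus strand: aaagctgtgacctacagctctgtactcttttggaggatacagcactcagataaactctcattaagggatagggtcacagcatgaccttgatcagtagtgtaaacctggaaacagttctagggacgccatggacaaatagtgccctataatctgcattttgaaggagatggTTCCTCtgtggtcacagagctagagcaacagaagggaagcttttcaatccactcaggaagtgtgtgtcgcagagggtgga
Cd300e, chr11:115062040-115062289, minus strand: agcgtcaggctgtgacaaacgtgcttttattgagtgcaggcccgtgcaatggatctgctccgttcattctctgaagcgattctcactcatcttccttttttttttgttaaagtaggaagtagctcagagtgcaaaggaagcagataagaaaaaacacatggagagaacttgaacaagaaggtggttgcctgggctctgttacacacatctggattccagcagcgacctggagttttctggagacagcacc
In the window of Clec12a, GAGGAA and TTCCTC ended 55 and 41 bases before the start site, and in that of Clec4b1 33 and 62 bases before it. In that of AF251705, TTCCTC ended 74 bases before it.

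In lymph nodes, each of the 7 genes was listed higher in all 3 proteinuric nodes than in any Ab positive node, as the choice required. Of 6810 genes whose values averaged 5 or more over these 6 nodes, 170 (2.50%) showed this order and 414 (6.08%) the opposite one. With limma, 0 of the 6810 genes (0%) passed an adjusted p of 0.05, while 215 (3.16%) had an unadjusted p under 0.05, 91 of them higher in the proteinuric nodes. edgeR's quasi-likelihood test called 0 genes as well, and DESeq2 called 13. Fold changes below are differences of mean log2(value + 1), and ratios of scaled reads compare the summed reads over the summed size factors of each group, with exact 95% intervals that cover counting error only. Of the 7 genes, 4 (Clec4b1, Clec12a, Cd300e and Sirpb1a) had a mean below 5 in the Ab positive nodes and passed the filter only through the proteinuric nodes.

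Of the lectins, Clec4a3 was listed at 46.4, 52.1 and 51.0 in the proteinuric nodes of H6, H20 and H117 (49.8 ± 3.04, SD, n = 3) and at 7.41, 14.3 and 5.74 in the Ab positive nodes of D10, D11 and L25 (9.14 ± 4.52). The log2 difference was 2.41, and the reads, 147 against 25, gave a ratio of 5.92 (3.86 to 9.45). All 3 proteinuric nodes lay close together, and the highest Ab positive node, D11, was still far below them. Clec4b1 was listed at 24.6, 18.0 and 21.9 against 1.85, 4.76 and 2.29, which are 60 reads against 6 (log2 difference 2.56, ratio 10.1, 4.36 to 28.5). D11 was again the highest of the Ab positive nodes, with 4 of the 6 reads. Clec12a, the inhibitory lectin, was listed at 15.9, 11.4 and 11.3 against 2.78, 2.85 and 2.29 (34 and 5 reads, log2 difference 1.92, ratio 6.85, 2.66 to 22.4), the smallest log2 difference of the 7. By ratio it was not the smallest, since Clec4a3 (5.92) and AF251705 (5.03) were lower.

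The receptors that signal through DAP12 showed the same order, with more spread among proteinuric nodes for Cd300e and AF251705 than for the lectins. Cd300e was listed at 24.6, 46.4 and 34.0 in the proteinuric nodes and at 0.927, 7.61 and 2.29 in the Ab positive nodes, where D10 had no read and D11 had 7 of the 8 reads. Its log2 difference of 3.20 was the largest of the 7, and 105 reads against 8 gave a ratio of 13.2 (6.47 to 31.4), below that of Sirpb1a (15.1). AF251705, its neighbor on the chromosome, was listed at 65.2, 25.6 and 29.1 against 7.41, 9.51 and 6.88 (105 and 21 reads, log2 difference 2.08, ratio 5.03, 3.13 to 8.47). The H6 node stood above the other two for this gene, whereas for Cd300e it was the lowest. Sirpb1a was listed at 17.4, 16.1 and 15.4 against 1.85, 2.85 and 1.15. With only 3 reads in all Ab positive nodes against 45, its ratio of 15.1 had an interval of 4.85 to 76.0. Its near-identical copies had fewer reads in the same order, 7 against 0 for Sirpb1b and 12 against 1 for Sirpb1c.

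Wfdc17, the secreted protein, had the most reads of the 7. It was listed at 233, 205 and 77.7 in the H6, H20 and H117 nodes (172 ± 82.8, SD, n = 3) and at 13.9, 26.6 and 19.5 in the Ab positive nodes (20.0 ± 6.38). The H117 node was well below the other two, but above every Ab positive node. The log2 difference was 2.94, and 470 reads against 57 gave a ratio of 8.30 (6.30 to 11.1).

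**Figure D1:**
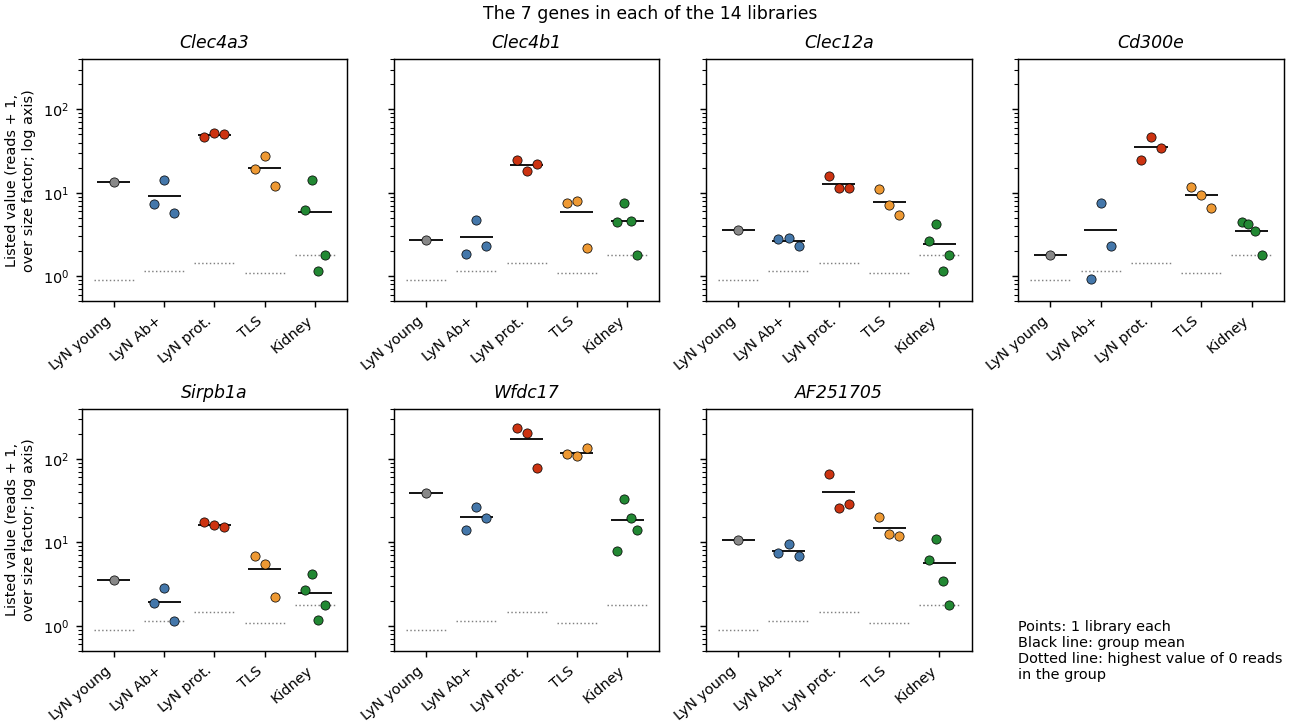
Normalized value (reads + 1, over the size factor; log axis) of each of the 7 genes in the 14 libraries by group (LyN, lymph node; Ab+, Ab positive; prot., proteinuric); each point is 1 library, black lines are group means, and dotted lines the highest value that 0 reads take in the group. For all 7 genes the 3 proteinuric nodes lie above every Ab positive node and the young node, and only for Wfdc17 does a proteinuric node (77.7) fall below the TLS libraries (107 to 134).

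The young node, isolated with the same kit as the proteinuric nodes, was below each of them for 7 of the 7 genes, which held for 19.2% of all genes tested and for 61.8% of the 170 genes whose proteinuric nodes were all above the Ab positive nodes. Clec4a3 was listed at 13.4 in the young node (14 reads), Clec4b1 at 2.68 (2 reads) and Cd300e at 1.79 (1 read), all 3 within the range of the Ab positive nodes. Clec12a and Sirpb1a were both listed at 3.58 (3 reads each), AF251705 at 10.7 (11 reads) and Wfdc17 at 39.4 (43 reads), above each Ab positive node. For these 4 genes the order rests on few reads except for Wfdc17, whose ratio of scaled reads to the Ab positive nodes was 2.03 (1.33 to 3.06). Such a position above each Ab positive node held for 18.7% of all genes tested. Against the young node, the ratio of scaled reads in the proteinuric nodes was 3.94 for Clec4a3 (2.27 to 7.38), 3.58 for AF251705 (1.92 to 7.39), 4.10 for Wfdc17 (2.99 to 5.74) and 39.4 for Cd300e (6.91 to 1569), the last against a single read. With 1 young library there is no replicate check.

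The rule set no numerical limit, and other genes lay as high. Ordered by log2 difference among the 170 genes, the 7 genes held ranks from 3 (Cd300e) to 21 (Clec12a), with 14 further genes among them, such as S100a9 (3.90), Fcgr4 (3.50), Cd5l (3.04), Saa3 (2.98), Siglece (2.37) and Il1b (2.36). Just above Clec12a were Clec4a1 (1.92), Klra2 (2.02), Gm29284 (2.03) and Ighv6-3 (2.05). Among the 5 genes just below it were Cxcl14 (1.85), Ms4a6d (1.77), Fgl2 (1.72) and Klra17 (1.68). S100a9 and its partner S100a8, proteins of neutrophils, were uneven: S100a9 was listed at 136 in the H6 node, 22.7 in the H20 node and 7.28 in the H117 node, and S100a8 at 88.4, 4.74 and 0.809. Their part in the values of the 7 genes was not tested.

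Relatives of the 7 genes did not all share their order. Of 14 related C-type lectins on the list, 6 were in the table and 3 passed the filter. Of these, Clec4a1 (DCIR4), another gene of the Dectin-2 cluster, was listed at 27.5, 39.8 and 52.6 in proteinuric nodes and at 4.63, 15.2 and 11.5 in Ab positive nodes (log2 difference 1.92, SE 0.44, limma adjusted p = 0.638). Clec4n (Dectin-2 itself) was listed at 31.9, 25.6 and 16.2 against 20.4, 19.0 and 20.7, and the groups overlapped (log2 difference 0.23, SE 0.31, limma adjusted p = 0.998). Clec10a, a galactose-binding lectin, differed by 0.01 (SE 0.42). Among other members of the CD300 family, 4 passed the filter and all 4 were listed lower on average in proteinuric nodes in this fit, with a median log2 difference of -0.40, while the median of all genes was -0.08. For 1 of them, Gm11711, the sign flipped when ribosomal RNA was left out (-0.09 to 0.06). Cd300lh was listed at 24.6, 35.1 and 64.7 against 75.1, 75.2 and 47.0 (log2 difference -0.73, SE 0.41, limma adjusted p = 0.998). In this cluster, Cd300e and AF251705 thus lay at one end and Cd300lh at the other, but none of the 4 relatives passed the test. Cd300a and Cd300ld were below the filter, with 9 reads against 4 and 14 against 1.

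Sirpa, the inhibitory relative of Sirpb1a, was listed at 43.5, 64.4 and 81.7 in proteinuric nodes and at 36.1, 39.0 and 21.8 in Ab positive nodes (log2 difference 0.94, SE 0.36, limma adjusted p = 0.998), and Cd47, which encodes its ligand, differed by -0.33 (SE 0.29). Slpi, a secreted WAP-domain protease inhibitor like Wfdc17, differed by 0.40 (SE 0.49), with values of 283, 181 and 112 against 203, 147 and 83.7.

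Of the adaptors and kinases next to the receptors, 14 of 15 passed the filter, 0 passed an adjusted p of 0.05 with limma, and 2 were higher at an unadjusted p under 0.05, Fcer1g among them, against 1.34% of all genes. Fcer1g was listed at 154, 238 and 143 in proteinuric nodes and at 58.4, 83.7 and 74.6 in Ab positive nodes (log2 difference 1.27, SE 0.36, limma adjusted p = 0.998). Tyrobp was listed at 351, 215 and 135 against 114.9, 123.7 and 91.8 (log2 difference 0.98, SE 0.43). Fgr, a Src-family kinase of myeloid cells, had a log2 difference of 0.83 (SE 0.38) and Syk, the kinase that both adaptors recruit, of 0.52 (SE 0.33). The groups did not overlap for 4 of the 14 genes, all higher in proteinuric nodes, compared with 2.50% of all genes. The median log2 difference of the 14 genes was 0.35.

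Marker genes of myeloid cells were mixed. Of 15 monocyte genes that passed the filter, 0 passed an adjusted p of 0.05 with limma, 4 were higher at an unadjusted p under 0.05 (1.34% of all genes), and the groups did not overlap for 6, all higher in proteinuric nodes (2.50% of all genes). The summed value of the 18 monocyte genes in the table was 1879 to 2440 in proteinuric nodes, 1432 to 1707 in Ab positive nodes and 1476 in the young node, and none was without a read in any of these groups. Most of this sum was Lyz2, with means of 1520 and 1217 in proteinuric and Ab positive nodes. The groups of Lyz2 overlapped (log2 difference 0.33, SE 0.43). Fcgr4, an activating IgG receptor of nonclassical monocytes and macrophages, was listed at 126, 152 and 163 against 5.56, 20.0 and 14.9 (log2 difference 3.50, SE 0.44, limma adjusted p = 0.1000). Itgam, the CD11b chain, had a log2 difference of 1.62 (SE 0.37), Ms4a6c of 1.00 (SE 0.30) and Cd14 of 1.13 (SE 0.37). Ly6c2, which marks classical monocytes, differed by 0.39 (SE 0.30), and Csf1r, the growth factor receptor of monocytes and macrophages, by -0.46 (SE 0.40). Ccr2, the chemokine receptor of classical monocytes, had 7 reads against 1. The part of the number of monocytes in the values of the 7 genes was not tested.

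Of 11 macrophage genes, 0 passed an adjusted p of 0.05 with limma, and 2 were lower at an unadjusted p under 0.05, against 1.82% of all genes. They were Marco, a scavenger receptor of macrophages in the medulla of lymph nodes, with 29.0, 81.5 and 50.2 against 126, 75.2 and 132 (log2 difference -1.12, SE 0.44), and Timd4, a receptor for dying cells, with 44.9, 31.3 and 40.5 against 87.1, 55.2 and 97.5 (limma adjusted p = 0.998). In both genes the young node, at 136 and 88.6, lay nearer to the Ab positive nodes. The list as a whole was mixed: 6 of the 11 genes had a positive log2 difference, and the median was 0.39. The groups did not overlap for 1 gene that was higher, C1qb (log2 difference 0.78, SE 0.36), and for 1 that was lower, Timd4. These counts stand against 2.50% and 6.08% of all genes. The summed value of the 12 macrophage genes was 827 to 1329 in proteinuric nodes, 802 to 909 in Ab positive nodes and 796 in the young node. Of 7 dendritic cell genes, 1 was higher (Itgax, log2 difference 1.61, SE 0.51) and 1 lower (Ccr7, -0.83, SE 0.35) at an unadjusted p under 0.05, and none passed the adjusted test with limma. Only 2 of the 7 had a positive log2 difference, and the median was -0.61, against -0.08 for all genes. Among 8 transcription factors of myeloid cells, Cebpb had the largest log2 difference (1.14, SE 0.44, limma adjusted p = 0.998), while Spi1, which encodes PU.1, was listed at 15.9, 32.2 and 27.5 against 22.2, 36.1 and 22.9. T cell genes had a summed value of 278 to 307 in proteinuric nodes, 392 to 551 in Ab positive nodes and 391 in the young node, and the groups did not overlap for 3 of the 6 genes, all lower in proteinuric nodes, compared with 6.08% of all genes. B cell genes summed to 617 to 901, 601 to 1255 and 660. The 5 neutrophil genes in the table summed to 19.4 to 230 in proteinuric nodes, 6.49 to 18.4 in Ab positive nodes and 17.0 in the young node, and 2 of them had no read in the proteinuric nodes. The part of these cells in the values of the 7 genes was not tested.

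**Figure D2:**
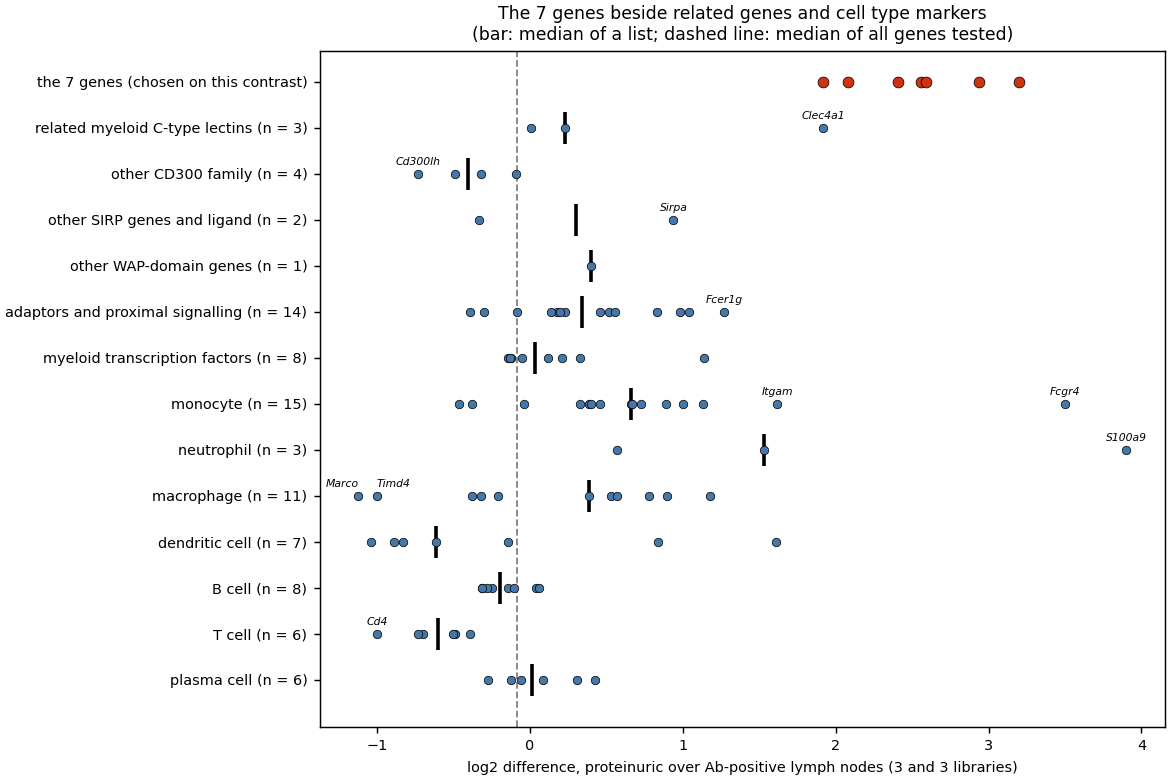
Log2 difference between proteinuric and Ab positive lymph nodes (3 libraries each) for the 7 genes and for the genes of each list that passed the filter; each point is 1 gene, black bars are medians of a list and the dashed line is the median of all genes tested (-0.08). The 7 genes, chosen on this difference, span 1.92 to 3.20, where among the listed genes only Clec4a1, Fcgr4 and S100a9 reach.

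The same genes were then followed into the kidney, where the rule had not looked. TLS and kidney were compared over 7 libraries with limma, in which 793 of 7188 genes passed an adjusted p of 0.05, 460 (6.40%) of them higher and 333 (4.63%) lower in TLS. With edgeR and TMM scaling these were 451 and 113 genes. The mouse numbers pair TLS and kidney of the same animal. Of the 7 genes, 5 passed the filter, and of these Clec4b1 and Cd300e, with kidney means of 4.61 and 3.47, passed it only through TLS.

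Wfdc17 rose in TLS. It was listed at 115.3, 106.9 and 134.1 in TLS of H6, H20 and H115 (119 ± 13.9, SD, n = 3) and at 7.96, 32.9, 19.7 and 14.2 in kidney of H6, H20, H115 and H117 (18.7 ± 10.6, n = 4). All TLS libraries were above all kidney libraries, which held for 11.3% of the genes tested. The log2 difference was 2.76 (SE 0.44, limma adjusted p = 0.00484), and within H6, H20 and H115 it was 3.70, 1.67 and 2.71. The reads, 392 against 69, gave a ratio of 6.31 (4.88 to 8.28). The gene was called under 17 of 17 alternatives on TLS and kidney, with an adjusted p between 5.13e-06 and 0.0340.

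Of the lectins, Clec4a3 was listed at 19.5, 27.5 and 11.99 in TLS and at 6.19, 14.3, 1.16 and 1.77 in kidney, where H115 and H117 had no read. The groups overlapped, since the H20 kidney was above the H115 TLS. The log2 difference of 1.96 (SE 0.65) did not pass the test (limma adjusted p = 0.0903), whereas with the mouse as a replicate block it was 1.67 (limma adjusted p = 0.0197), and without the H20 kidney the adjusted p of limma was 0.0163. Over the 16 alternatives on TLS and kidney that gave a value, the adjusted p was between 0.0163 and 0.260. Within each of the 3 mice, TLS was higher. Clec4b1 was listed at 7.63, 7.86 and 2.18 in TLS and at 4.42, 7.59, 4.64 and 1.77 in kidney, and the log2 difference was 0.26 (SE 0.53, limma adjusted p = 0.806). With 18 reads against 15, the ratio of 1.33 had an interval of 0.635 to 2.84, which at this depth spans lower and clearly higher levels in TLS. Clec12a, below the filter with a mean of 4.76, was listed at 11.02, 7.07 and 5.45 in TLS and at 2.65, 4.22, 1.16 and 1.77 in kidney. Its groups did not overlap, and 24 reads against 6 gave a ratio of 4.44 (1.77 to 13.3).

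Of the DAP12 receptors, none passed the test between TLS and kidney. Cd300e was listed at 11.9, 9.43 and 6.54 in TLS and at 4.42, 4.22, 3.48 and 1.77 in kidney, with no overlap (log2 difference 1.21, SE 0.38, limma adjusted p = 0.0713). Over the 15 alternatives on TLS and kidney that gave a value, the adjusted p was between 0.0562 and 0.213. AF251705 was listed at 20.4, 12.6 and 11.99 in TLS and at 6.19, 10.97, 3.48 and 1.77 in kidney, again with no overlap (log2 difference 1.44, SE 0.48, limma adjusted p = 0.0889). Without the H20 kidney the adjusted p of limma was 0.0296, and it was above 0.05 under each of the other 15 alternatives on TLS and kidney that gave a value. Sirpb1a, below the filter with a mean of 3.47, was listed at 6.78, 5.50 and 2.18 in TLS and at 2.65, 4.22, 1.16 and 1.77 in kidney, and the groups overlapped (14 and 6 reads, ratio 2.59, 0.936 to 8.23).

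The dissected TLS carried other cells as well. The 7 genes of kidney tubules had a summed value of 1664 to 7483 in TLS and of 5847 to 18078 in kidney, and 2 of them fell in TLS, as did 4.63% of all genes. All 6 B cell and all 4 T cell genes that passed the filter rose in TLS with limma, with medians of 3.42 and 2.82 on the log2 scale. Of 15 monocyte genes, 7 rose, among them Ly6c2 (log2 difference 3.66, SE 0.42, limma adjusted p = 0.000905), Ms4a4c (2.81, SE 0.37, adjusted p = 0.00177) and Fcgr4 (1.99, SE 0.44, adjusted p = 0.0199). Others, such as Cx3cr1 (1.22, SE 0.59) and Itgam (0.71, SE 0.47), did not pass. Neither did Csf1r (0.30, SE 0.42, limma adjusted p = 0.713) nor Ace (-1.61, SE 0.76, limma adjusted p = 0.212). The difference was positive for 14 of the 15, with a median of 1.30. Ccr2, below the filter, had 5 reads in TLS and 10 in kidney. Of 12 adaptor and kinase genes, 6 rose, Syk among them (2.66, SE 0.38, adjusted p = 0.00291), but neither Fcer1g (1.63, SE 0.50, limma adjusted p = 0.0675) nor Tyrobp (1.40, SE 0.45, limma adjusted p = 0.0793) passed the test. One of 8 macrophage genes rose, C1qc (1.87, SE 0.51, limma adjusted p = 0.0451), as did Slpi, the relative of Wfdc17 (4.17, SE 0.64, limma adjusted p = 0.00459). The counts of genes that rose stand against 6.40% of all genes. The part of kidney RNA in TLS, and of each cell type, in the values of the 7 genes was not tested.

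Among the tissues of proteinuric mice, the lymph nodes were highest for most of the genes. Of the 7, 6 were above every TLS library in each proteinuric node, compared with 11.2% of 7112 genes, and 7 of 7 were above every kidney library, compared with 23.3% of 7417 genes. Since the nodes were chosen as high, these counts are a description, and among the 170 genes whose proteinuric nodes were all above the Ab positive nodes the shares were 52.9% for TLS and 65.9% for kidney. The margin was narrow for Clec12a, with 11.3 in the lowest node and 11.02 in the H6 TLS, and a ratio of scaled reads of 1.60 (0.922 to 2.82). It was wide for Clec4b1, with 18.0 in the lowest node and 7.86 in the highest TLS library (ratio 3.77, 2.19 to 6.78), and for Cd300e, with 24.6 and 11.9 (ratio 4.09, 2.69 to 6.40). Wfdc17 was the exception: the H117 node, at 77.7, was below all 3 TLS libraries, and the ratio of nodes to TLS was 1.35 (1.18 to 1.55). In H6 and H20, from which all 3 tissues were sequenced, all 7 genes were listed in the order lymph node, TLS, kidney in both animals. The choice of genes high in the nodes fixed part of this order, and its share among all genes was not counted. The smallest step was that of Clec4b1 between TLS and kidney of H20, with 7.86 and 7.59 (9 and 8 reads). In H20, few reads also separated TLS and kidney for Sirpb1a (6 and 4) and AF251705 (15 and 12). For Clec4b1, in the H115 TLS (2.18) the order was turned against the H115 kidney (4.64), with 1 read against 3.

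**Figure D3:**
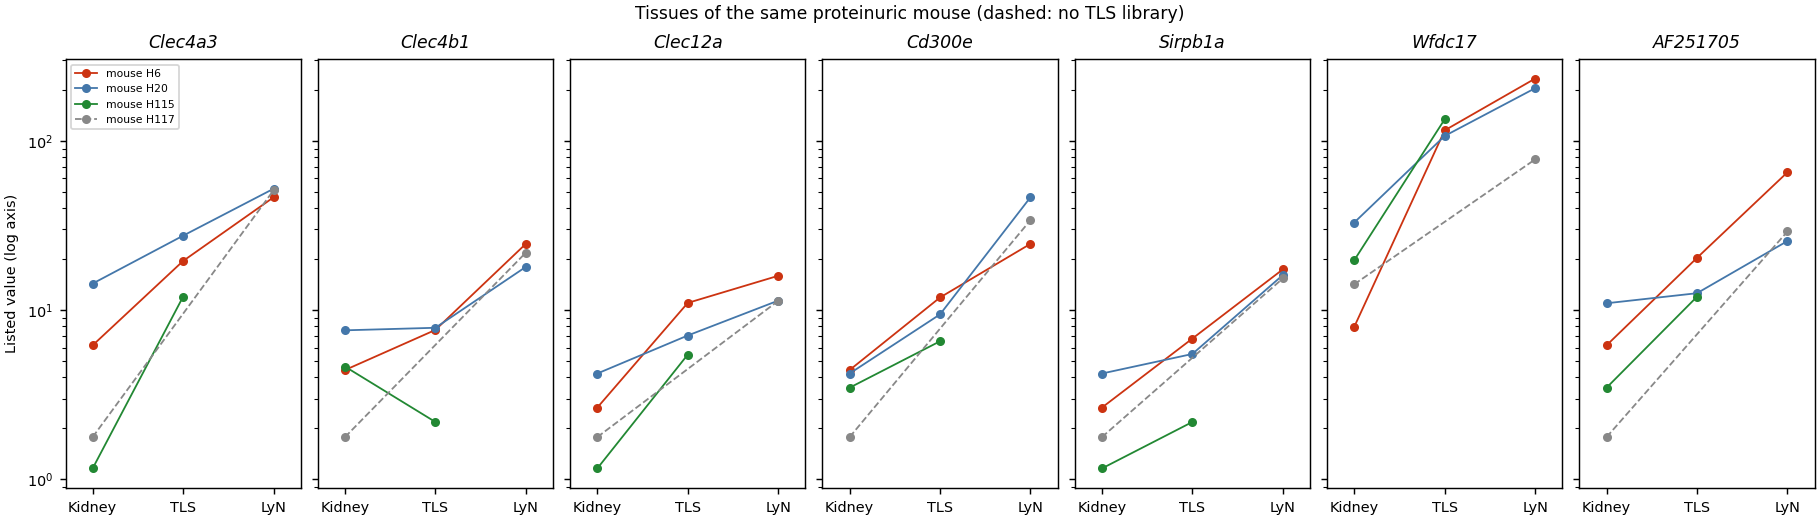
Normalized value (log axis) of the 7 genes in kidney, TLS and lymph node (LyN) of each proteinuric mouse; each point is 1 library and lines join the tissues of 1 mouse, dashed for H117, which has no TLS library. In H6 and H20 the values step up from kidney over TLS to lymph node for every gene, some steps resting on few reads. The genes were chosen as high in these nodes. In H115 Clec4b1 is lower in TLS (2.18) than in kidney (4.64).

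Compared with the Ab positive nodes, TLS lay higher without overlap for 3 of the 7 genes, and for 12.4% of the 7139 genes averaging 5 or more over these 6 libraries. Wfdc17 was above every Ab positive node in each TLS library (107 to 134 against 13.9 to 26.6), and so were Clec12a (5.45 to 11.02 against 2.29 to 2.85) and AF251705 (11.99 to 20.4 against 6.88 to 9.51). For Clec4a3, Clec4b1, Cd300e and Sirpb1a the groups overlapped. The Ab positive nodes were chosen as low, so no test is given. In kidney, all 7 genes overlapped with the Ab positive nodes, and the H117 kidney had no read for 6 of the 7 genes at the lowest depth outside ribosomal RNA, 167440 reads.

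Over the 14 libraries the 7 genes varied together. Pearson's r between pairs of them had a median of 0.849 (0.674 to 0.938, 21 pairs). The choice of the genes fixed part of this, as 6 of the 14 libraries were used for it. Over the 7 TLS and kidney libraries, which were not used, the median was 0.799 (0.277 to 0.928), in libraries that share the depth of low counts and the mix of tissues. The summed value of the 7 genes was 240 to 427 in proteinuric nodes, 174 to 192 in TLS, 36.1 to 68.5 in Ab positive nodes, 75.2 in the young node and 24.8 to 78.4 in kidney, where H20 was highest.

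Of 7392 other genes whose values averaged 5 or more, the 10 whose profile over the 14 libraries was most like the mean profile of the 7 included Fcgr4 (r = 0.962), Clec4a1 (0.920), Il1b (0.919), Ccl4 (0.884), Ms4a6d (0.868), Fcer1g (0.865), Fcrl5 (0.863), Siglece (0.848) and Cd5l (0.838). The 14 libraries include the 6 nodes by which the 7 genes were chosen, which fixed part of this likeness. Of the genes named, Fcgr4, Cd5l, Siglece, Il1b, Fcrl5, Ccl4 and Clec4a1 also stood above Clec12a in the order of log2 difference between those nodes. The libraries are not independent points, since tissues share mice, so no test is given. The list held receptors of myeloid cells (Fcgr4, Clec4a1 and Siglece), the cytokine Il1b and the chemokine Ccl4, and Cd5l, a protein that macrophages secrete. Fcrl5 is known as a receptor of B cells. Fcgr4 had group means of 147 in proteinuric nodes, 46.5 in TLS, 13.5 in Ab positive nodes, 11.6 in the young node and 12.1 in kidney. Cd5l differed from the rest in TLS, with 6.07 there and 50.6 in proteinuric nodes.

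**Figure D4:**
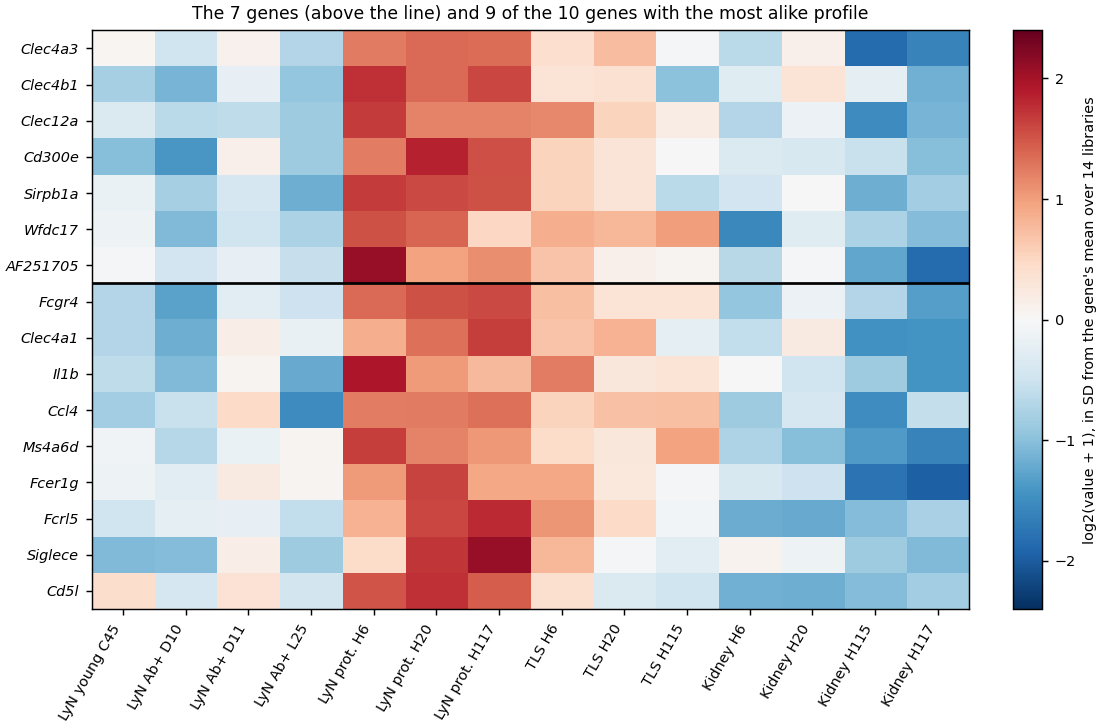
Profiles of the 7 genes (above the line) and of 9 of the 10 genes with the highest Pearson correlation to their mean profile (below it), as log2(value + 1) in SD from the mean of each gene over 14 libraries; each column is 1 library. The 3 proteinuric nodes are the dark red columns, TLS is intermediate for most genes, and Cd5l, with r = 0.838, is near its mean in TLS. The proteinuric and Ab positive nodes served to choose the 7 genes.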

How the data were processed

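Poly(A) RNA was sequenced by the authors on the Ion Torrent PGM system. Reads were trimmed, mapped to GRCm38 and counted for each gene with CLC Genomics Workbench 8. Their deposited table lists a signal per gene and library. In 100% of cases this signal times a size factor was a whole number (tolerance 0.001), and size factors recomputed from those numbers equalled the listed ones, so the deposited signal is reads plus 1 over a DESeq size factor. Reads were recovered from it. How reads of near-identical genes were shared out, and strand, are not given in the sources used here.

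Group differences were fitted with limma 3.58.1 (trend, robust) in R 4.3.3 on log2(value + 1) for genes averaging 5 or more, lymph nodes (6 libraries) and TLS with kidney (7 libraries) apart, with Benjamini-Hochberg adjustment over all genes. edgeR 4.0.16 and DESeq2 1.42.0 on recovered reads, pseudocounts of 0.5 and 5, other filters, rescaling without ribosomal RNA, and leaving out libraries were alternatives; 1 left out the H115 TLS and H117 kidney together and was chosen after seeing the data, as was the recount of genes whose groups do not overlap. The tests were also run on simulated counts, in which genes with means as low as those of several of the 7 in TLS and kidney were left unchanged. That run is not used here and is no check of the calls on the 7 genes. The genes and lists were chosen with earlier results of these data known. Of 168 listed genes, 134 were found by symbol, 4 by an older symbol, and 30 are not used here. Named are the 7 genes, listed genes, the 10 most alike profiles and the 5 genes above and below the lowest of the 7, except 2 genes that are not reported here. Mouse numbers pair TLS and kidney of the same animal, with correlations of their deviations of 0.366, 0.378 and 0.465. Between different animals these ran from -0.521 (H115 TLS, H20 kidney) to 0.388 (H115 TLS, H117 kidney). Nothing in the labels joins the lymph node groups. Single p-values measure the spread between libraries of a group, 1 per mouse, which holds counting error as well as differences between mice. The main fit of TLS and kidney took tissues of the same mouse as independent. With the mouse as a replicate block, the spread is that within mice. Whole kidneys were not analysed here.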

Additional observations from a re-analysis of the deposited data

How the results depend on the processing

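Between proteinuric and Ab positive lymph nodes, limma called 0 genes, DESeq2 called 13, and leaving out each library in turn gave 0 to 5 genes, the 5 without the D11 node. The 7 genes were higher in proteinuric nodes under each alternative that gave a value, with log2 differences from 1.22 (Clec12a) to 4.06 (Sirpb1a). These fits used the nodes on which the genes were chosen, so the choice largely fixed this direction, and it is a description only. All 7 stayed above every Ab positive, young and kidney library after rescaling without ribosomal RNA, and 5 instead of 6 above every TLS library. The choice of genes high in these nodes bears on these counts too, and the shares of all genes after rescaling were not counted. That rescaling moved the median difference of all genes from -0.08 to 0.08 between the lymph node groups.

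Between TLS and kidney, 793 genes were called, 449 with a mean value of at least 20 (fewer genes were tested), and 231 to 967 with each library left out in turn: 231 without the H6 TLS, 389 without the H20 TLS, 432 without the H115 kidney and 495 without the H117 kidney. With the mouse as a replicate block there were 1416, 557 higher and 859 lower in TLS. The cause was not tested. In this paired fit Clec4a3 was called (adjusted p = 0.0197), and no other call among the 7 genes changed. H117 has no TLS library, so the replicate block takes up its kidney, and the log2 differences equal those without the H117 kidney by construction. That of Clec4b1 was -0.04 in both. It was -0.04 to 0.75 when 1 of the 4 libraries was left out without which Clec4b1 still passed the filter. Clec4b1 was called in none of these fits. Clec4a3 was also called without the H20 kidney. The fit that added the proteinuric nodes holds values by which the 7 genes were chosen, and is no test of them. AF251705 was called without the H20 kidney. Without the H115 TLS and H117 kidney, the richest in ribosomal RNA, Wfdc17 was called (log2 difference 2.60, limma adjusted p = 0.0334).

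No paired analysis was possible between the lymph node groups because they share no mouse. Single reads decide many low values: 3 reads are worth 3.14 to 7.10, and the H117 kidney had no read for 6 of the 7 genes.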
